A study of Mus musculus with 6 samples.

Results

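The 44 collagen genes of the mouse, those whose symbol reads Col, a number, a and a second number, were taken from the 34099 genes of a single-cell RNA-seq study of liver tumors, and their unique molecular identifiers (UMIs, counts of captured RNA molecules) were summed per mouse over each annotated cell type and over each cluster of endothelial cells (ECs) and tumor cells. All 44 had UMIs in the annotated cells, from 6 for Col9a1 to 77198 for Col8a1, with 8 genes under 100 UMIs and 8 genes over 10000. The control group and the stress group held 3 mice each. All were wild type male C57BL/6J mice, obtained at 8 weeks of age, that carried tumors grown in the liver from H22 cells, a murine hepatocellular carcinoma line; the stress mice went through chronic unpredictable mild stress, and the control mice were housed without stressors. The tumor cells in all mice thus descend from 1 cell line, whereas ECs and hepatic stellate cells (HSCs) are cells of the host. Each library held 1 mouse, so the mouse is the replicate throughout.

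Collagens are the main structural proteins of the extracellular matrix, built from alpha chains that wind into a triple helix. Types I, III and V form fibrils, type IV forms the sheet of basement membranes beneath endothelium, type VI forms beaded filaments, type VIII forms networks, types XII and XIV sit on the surface of fibrils, and types XIII, XXIII and XXV span the cell membrane. In the liver, HSCs are known as the main source of fibril-forming collagens in fibrosis, and sinusoidal ECs as a source of type IV collagen.

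The mice supplied 7239 to 11752 annotated cells and 149558935 to 187728350 UMIs each. Median UMIs per cell were above 10000 in control 1, control 3 and stress 1 (16865 to 20478) and below it in control 2, stress 2 and stress 3 (7166 to 9032). The control libraries were counted with Cell Ranger 9.0.0 and those of stress mice with 7.1.0, as their matrix headers give it, and every contrast of the groups is also a contrast of these versions: they cannot be told apart. Pairs of libraries shared 13 to 40 cell barcodes. The markers of ECs (7 of 7), HSCs (10 of 10), T and NK cells (3 of 3) and B cells (3 of 3) were highest in their own class. Of the 5 tumor markers, Krt8 and Epcam were highest in HSCs. In the 350 cells annotated as M-MDSCs the tumor markers Krt18 (340 CPM), Cldn6 (135 CPM) and Afp (76.6 CPM) stood close to the tumor cells (423, 137 and 78.2 CPM) and the myeloid marker Lyz2 was at 27.8 CPM against 3793 in monocytes. CPM here is the UMIs of a gene per 1000000 UMIs of that class in that mouse, not divided by gene length.

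The start sites of the genes that lead in ECs and tumor cells are shown first. Col4a1 and Col4a2, the type IV chains that hold most collagen UMIs of ECs, start on opposite strands at chr8:11312805-11312826 (GRCm38, forward strand), so that their first 22 bases overlap.
Col4a1-Col4a2 shared start: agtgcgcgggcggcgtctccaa
Col8a1, the leading collagen of tumor cells, and Col13a1, a collagen highest in ECs in all 6 mice, are shown by the 250 bases before their start, at chr16:57754738-57754987 and chr10:61979109-61979358, both on the reverse strand. Capitals mark TATAAA and GGGCGG on either strand, where GGGCGG on the other strand reads CCGCCC.
Col8a1: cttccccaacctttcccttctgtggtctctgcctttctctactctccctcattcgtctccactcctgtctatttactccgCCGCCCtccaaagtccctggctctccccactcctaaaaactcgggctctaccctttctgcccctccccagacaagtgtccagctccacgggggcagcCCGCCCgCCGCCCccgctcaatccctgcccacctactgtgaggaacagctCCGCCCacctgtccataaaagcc
Col13a1: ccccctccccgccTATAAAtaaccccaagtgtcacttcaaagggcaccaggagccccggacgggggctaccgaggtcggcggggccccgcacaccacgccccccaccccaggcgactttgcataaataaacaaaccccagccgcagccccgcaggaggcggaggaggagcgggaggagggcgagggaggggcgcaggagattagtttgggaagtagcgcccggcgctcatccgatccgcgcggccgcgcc
The Col8a1 window held 4 matches to GGGCGG and none to TATAAA, and the Col13a1 window held 1 match to TATAAA, 237 bases before the start, and none to GGGCGG. Of all 32851 RefSeq windows of the same length (GRCm38.p6), 32.7% held GGGCGG and 12.4% held TATAAA. Neither window held CCAAT, which 33.8% of all windows held, or TGANTCA, which 6.75% held. Both strands were searched.

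The collagens of these tumors fell on 3 classes of cells. ECs, tumor cells and HSCs held 33.7%, 42.4% and 21.1% of all collagen UMIs, and the 7 other classes together held the rest. The 128 HSCs were 0.218% of the cells. Collagen genes took 0.676% to 3.34% of the UMIs of HSCs in a mouse, 0.0978% to 0.132% of those of ECs and 0.0102% to 0.0169% of those of tumor cells. In tumor cells, Col8a1 alone made up 62.9% to 73.2% of the collagen UMIs. In ECs, Col4a1 and Col4a2 made up 58.8% to 68.6%. In HSCs, Col1a1, Col1a2 and Col3a1 made up 72.0% to 82.4%. Levels between cell types are given as a description with no test, since the cell types were defined from the same genes.

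**Figure D1:**
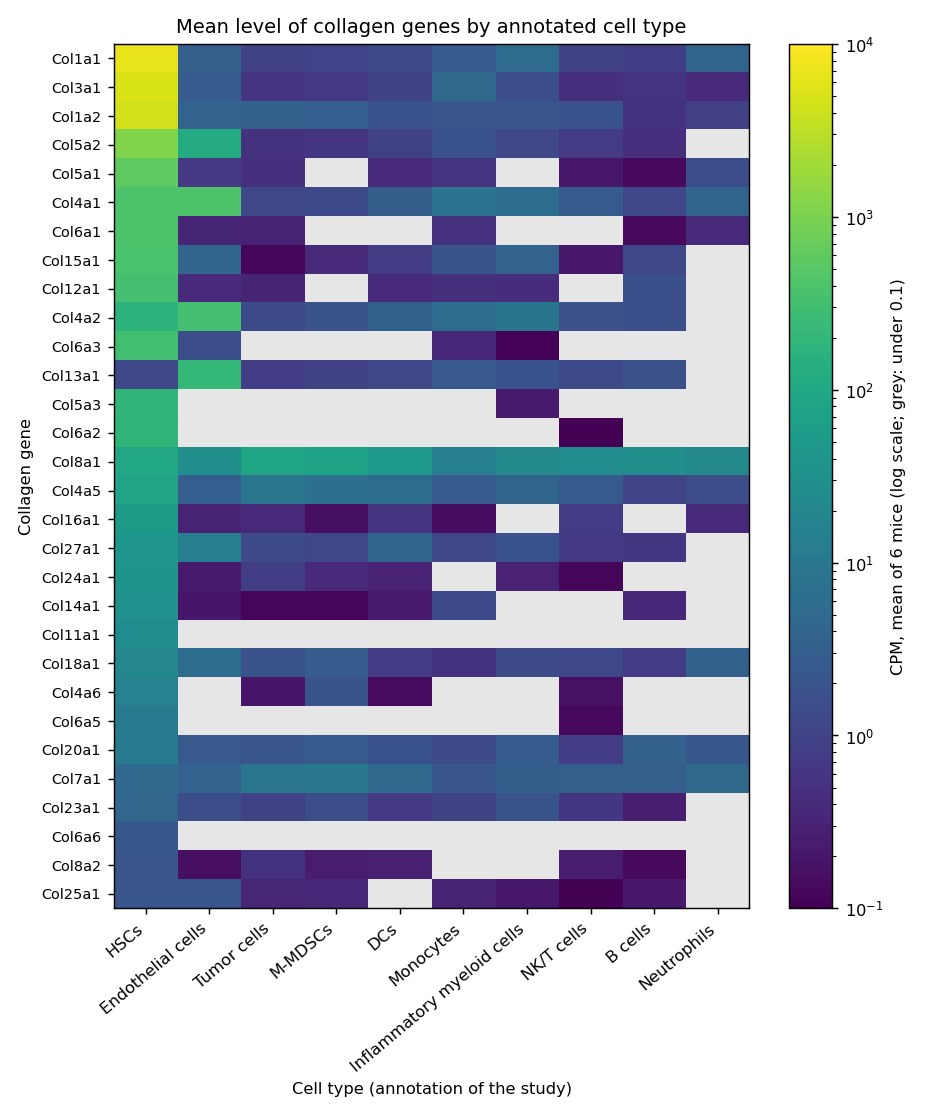
Mean CPM over 6 mice (colour, log scale, grey under 0.1) of the collagen genes that exceeded 2 CPM in any class (rows), by annotated cell type (columns). The fibrillar genes stand out in HSCs, where Col1a1 reached 6914 CPM, Col4a2 and Col13a1 in ECs, and Col8a1 in every class. Col4a1 was high in both HSCs and ECs, each the highest class in 3 of 6 mice.

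Most collagen genes had their highest mean level in HSCs: 29 of 44 did, including 23 of the 26 genes whose highest mean level exceeded 5 CPM. For some of them the mean rests on few mice or UMIs, as the HSCs of a mouse held as few as 69610 UMIs. Col4a1 was highest in HSCs in 3 of 6 mice, and Col8a1 in 1, with 0.165% of its UMIs there. Col25a1 was highest in HSCs in 1 mouse and in ECs in 5. Col1a1, a chain of type I collagen, was at 5902, 5502 and 2463 CPM in the HSCs of control 1, 2 and 3 and at 10324, 6154 and 11139 CPM in those of stress 1, 2 and 3. Col3a1, the chain of type III collagen, was at 4091, 5172 and 1426 CPM in control and 7147, 5081 and 8674 CPM in stress. Col1a2, the partner of Col1a1, was at 2597, 5229 and 972 CPM in control and 6384, 4527 and 7684 CPM in stress. The stress mice lay above all control mice for Col1a1, while for Col3a1 and Col1a2 control 2 lay above stress 2. Col5a2 (1105 CPM ± 433, SD, n = 6 mice) and Col5a1 (588 CPM ± 257), chains of the type V collagen that sits inside type I fibrils, followed. The type VI genes Col6a1 (394 CPM ± 121), Col6a3 (311 CPM ± 161) and Col6a2 (189 CPM ± 94.3) were below 2 CPM on average in every other class. The same held for Col12a1 (336 CPM ± 196), which coats fibrils, and Col5a3 (196 CPM ± 179). Col15a1, a heparan sulfate and chondroitin sulfate bearing collagen of basement membrane zones, was at 392 CPM ± 183 in HSCs and at 4.19 CPM ± 2.25 in ECs.

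The HSC values rest on few cells, with 23, 6 and 8 cells in the control mice and 26, 15 and 50 cells in the stress mice. The summed level of 5 tumor markers in HSCs was 2313 CPM in control 2 and 2113 CPM in control 3. In the other mice it was 61.6 to 419 CPM, and in tumor cells 695 to 974 CPM. Averaged over mice, Krt8 was at 300 CPM in HSCs against 5.66 CPM in tumor cells. Krt18 (417 against 423 CPM) and Epcam (166 against 145 CPM) were close. Cldn6 (11.1 against 137 CPM) and Afp (5.29 against 78.2 CPM) were lower in HSCs. The summed level of 10 stellate markers in HSCs was lowest in control 3, at 1400 CPM against 3056 to 7478 CPM. The source of these marker UMIs and their part in the control values were not tested. Without control 2 and control 3, control 1 stood alone against the stress mice, and its Col1a1 level of 5902 CPM was below all 3 of theirs.

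By edgeR's quasi-likelihood test with Benjamini-Hochberg adjustment over 4575 genes, 0 of 19 collagen genes tested in HSCs were called, where 0.109% of all genes were. DESeq2 called 0 of 20, against 0.526% of 5509 genes. By edgeR, 3 had an unadjusted p under 0.05. The log2 fold change (stress over control) was 1.04 for Col1a1 (SE 0.46, adjusted p = 0.528), 1.16 for Col1a2 (SE 0.54, adjusted p = 0.538) and 1.02 for Col3a1 (SE 0.49, adjusted p = 0.55). Of the 19, 12 had a positive value, with a median of 0.60 against 0.00 over all genes tested. Col4a2 was at 100.03, 101 and 51.9 CPM in control and 397, 203 and 191 CPM in stress, without overlap (log2 fold change 1.62, SE 0.44, adjusted p = 0.283). Col4a1 had 0 UMIs in the 8 HSCs of control 3 and was at 283 and 388 CPM in the other control mice and 869, 412 and 479 CPM in stress (log2 fold change 1.42, SE 0.76, adjusted p = 0.605). Col14a1, which binds to fibrils, was at 3.33, 28.7 and 0 CPM in control and 63.8, 60.4 and 43.1 CPM in stress (log2 fold change 2.91, SE 0.72, adjusted p = 0.261). It entered the test through the stress mice alone, as its control levels lay under the cutoff of the filter on low counts. The groups did not overlap for 4 of the 19 genes, against 15.1% of all genes tested. With no filter on low counts, the test called 1.55% of 17148 genes in HSCs, among them 4 of 33 collagen genes, namely Col4a1 (adjusted p = 0.0249), Col4a2 (adjusted p = 0.00536), Col14a1 (adjusted p = 0.00615) and Col6a5, a type VI chain at 0 in all control mice and at 14.2, 7.11 and 51.7 CPM in the stress mice.

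The chains of type I collagen are made in a fixed proportion, and the number of Col1a2 UMIs per Col1a1 UMI in HSCs was 0.44, 0.95 and 0.39 in control and 0.62, 0.74 and 0.69 in stress. The means were 0.60 ± 0.31 (SD, n = 3) and 0.68 ± 0.06 (n = 3), a difference within the spread of the control mice (p = 0.7, two-sided exact permutation test, for which the smallest possible p is 0.1). Without control 3 the difference changed sign, to -0.014.

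HSCs supplied 13.9%, 4.02% and 1.68% of the collagen UMIs of control 1, 2 and 3 and 31.5%, 14.3% and 41.8% of those of stress 1, 2 and 3. These shares follow both the number of HSCs captured and the collagen of each. HSCs were 0.218%, 0.051% and 0.0864% of the cells in control and 0.359%, 0.159% and 0.473% in stress. In both shares control 1 and stress 2 were close to each other, and the difference between groups was not tested.

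**Figure D2:**
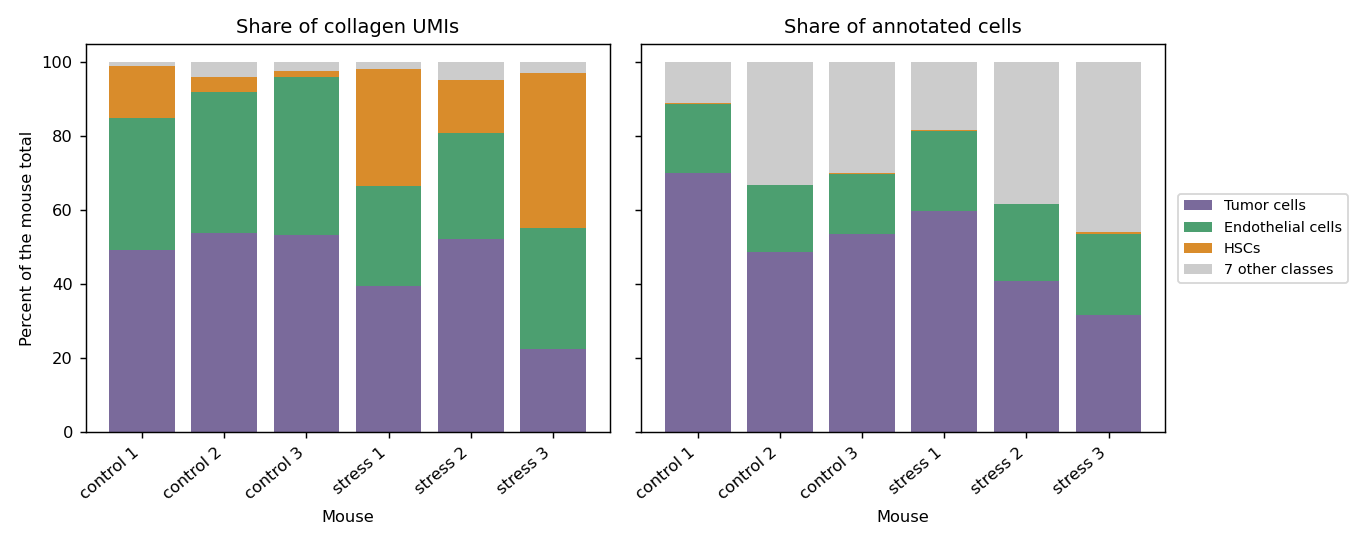
Share of the collagen UMIs (left) and of the annotated cells (right) of each mouse, in percent, held by tumor cells, ECs, HSCs and the 7 other classes. HSCs, too few to be visible among the cells, held 1.68% to 41.8% of the collagen UMIs.

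In ECs the type IV chains held most collagen UMIs, and their levels differed less between groups than between mice. Col4a1 was at 358, 385 and 435 CPM in control 1, 2 and 3 and at 352, 376 and 522 CPM in stress 1, 2 and 3. Col4a2 was at 331, 276 and 360.5 CPM in control and 293, 276 and 385 CPM in stress. The groups overlapped for both, with log2 fold changes of 0.06 (SE 0.18, adjusted p = 0.893) for Col4a1 and -0.05 (SE 0.17, adjusted p = 0.916) for Col4a2. Over the EC clusters, mean Col4a1 ran from 97.1 CPM ± 14.6 in cluster 16 to 579 CPM ± 53.8 in cluster 2, and the clusters stood in the same order for Col4a2 (78.8 to 467 CPM). Cluster 16 also carried the highest sum of tumor markers among the 3 EC clusters examined, 456 to 714 CPM per mouse against 17.2 to 46.6 CPM in cluster 2, and the lowest sum of endothelial markers, 1170 to 2025 CPM against 8409.8 to 11543 CPM.

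The ratio of the type IV chains also overlapped between the groups. ECs held 0.92, 0.72 and 0.83 Col4a2 UMIs per Col4a1 UMI in control and 0.83, 0.73 and 0.74 in stress, with means of 0.82 ± 0.10 (SD, n = 3) and 0.77 ± 0.05 (n = 3). The difference was within the spread between mice (p = 0.7, two-sided exact permutation test). Over the 7 EC clusters the ratio of the summed UMIs lay between 0.76 and 0.83. In HSCs it was 0.43, from 985 Col4a1 and 421 Col4a2 UMIs.

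Col13a1, a membrane-spanning collagen, was at 213 CPM ± 130 (SD, n = 6) in ECs, was highest in ECs in all 6 mice, and stayed at or below 2.50 CPM on average in every other class. A Col13a1 UMI was seen in 52.0% of ECs, whose median was 4538 UMIs, and in 0.879% of monocytes, whose median was 5291. After each cell was thinned to 1000 UMIs, which left out 610 ECs and 89 monocytes, the shares were 20.7% and 0.146%. Col5a2, whose chain joins type V fibrils, was at 118 CPM ± 92.5 in ECs and had a UMI in 30.2% of ECs and 0.958% of monocytes, or 12.1% and 0.211% after thinning.

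These 2 genes differed far more between mice than between groups, and in opposite directions. Col13a1 was at 370.2, 91.4 and 341 CPM in control and 272, 99.99 and 101 CPM in stress. Col5a2 was at 34.8, 254 and 39.3 CPM in control and 45.1, 141 and 191 CPM in stress. Col13a1 was high and Col5a2 low in control 1, control 3 and stress 1, and the reverse in control 2, stress 2 and stress 3. Those are the mice above and below 10000 median UMIs over all cells, although the median UMIs of their ECs did not divide in this way (3608, 4922 and 4750 against 4355, 4456 and 5832), nor did those of their tumor cells. The share of tumor cells among the cells did, at 70.1%, 53.6% and 59.9% against 48.8%, 41.0% and 31.7%. The part of cell composition in these levels was not tested. After thinning, 27.8% to 37.6% of the ECs of the former and 10.4% to 11.7% of those of the latter had a Col13a1 UMI, and 4.79% to 4.90% against 12.7% to 24.4% had a Col5a2 UMI. The division held in all 7 EC clusters for Col13a1 and in 6 of 7 for Col5a2; in cluster 27, with as few as 1 cell in a mouse, the Col5a2 ranges overlapped. Col4a1 did not divide in this way, with 352 to 435 CPM against 376 to 522 CPM. Nor did Col4a2, at 293 to 360.5 CPM against 276 to 385 CPM. By cluster, Col4a1 divided only in cluster 27 and Col4a2 only in cluster 18. The number of Col4a2 UMIs per Col4a1 UMI in ECs did divide, at 0.92, 0.83 and 0.83 against 0.72, 0.73 and 0.74. Over the 14090 genes tested in ECs, deviations from the group mean were correlated between control and stress mice. The correlations were 0.21 to 0.57 for mice of the same set and -0.57 to 0.02 for mice of different sets. The division was thus not confined to collagen genes, and the share of all genes that divide without overlap was not counted.

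**Figure D3:**
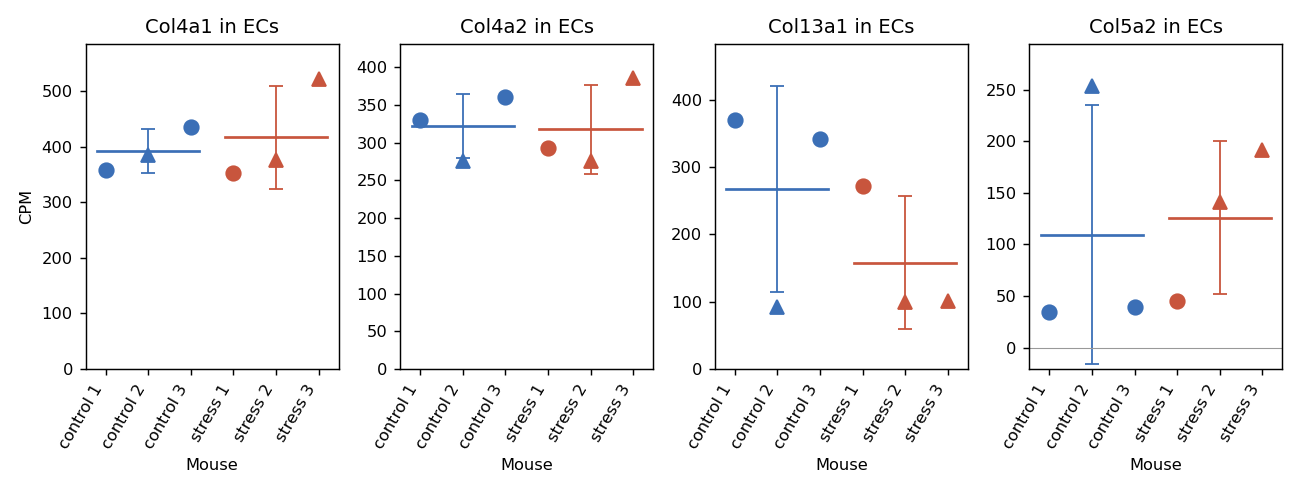
CPM of Col4a1, Col4a2, Col13a1 and Col5a2 in the ECs of each mouse (blue, control; red, stress), with the group mean (line) and SD (bar, n = 3). Circles are mice with a median above 10000 UMIs per cell and triangles the others. Col13a1 and Col5a2 divide by symbol rather than by colour.

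Between groups, the log2 fold change was -0.79 for Col13a1 (SE 0.59, adjusted p = 0.55) and 0.18 for Col5a2 (SE 0.82, adjusted p = 0.932). With 1 mouse left out the value for Col13a1 ran from -1.45 (without stress 1) to -0.50 (without control 1), and it was -1.19 without control 2. With the side of 10000 median UMIs per cell added to the fit as a term, called the depth term, which was decided on only once values had been seen, they were -0.14 (adjusted p = 0.59) and -0.21 (adjusted p = 0.626), so that Col5a2 changed direction and neither was called. Within the mice above that median Col13a1 was at 370.2 and 341 CPM in control against 272 CPM in stress. Within those below it Col13a1 was at 91.4 CPM in control against 99.99 and 101 CPM in stress.

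Across all ECs, 0 of 16 collagen genes tested were called by edgeR, where 0.213% of 14090 genes were. DESeq2 called 0 of 20, against 2.46% of 14968 genes. Simulated data for this comparison recovered 46.4% of genes changed by 1 and 85.3% of those changed by 2 on the log2 scale. The changed genes were drawn at random from the genes tested in ECs, with a median dispersion of 0.0316, and mice varied independently for each gene. These shares therefore do not carry over to collagen genes that vary as much between mice as Col13a1 and Col5a2. An unadjusted p under 0.05 was found for Col1a1 (log2 fold change 3.50, SE 1.20, adjusted p = 0.248) and Col1a2 (2.01, SE 0.71, adjusted p = 0.258). Both rest on stress 3, with 15.1 CPM of Col1a1 and 12.7 CPM of Col1a2 against at most 2.01 and 2.63 CPM in any other mouse; without it their log2 fold changes were 1.37 and 0.79. In EC cluster 2 of stress 3 Col1a1 was at 31.3 CPM, against at most 1.62 CPM in the other mice. The summed level of 10 stellate markers in ECs was 18.6 to 47.0 CPM in control and 25.2 to 26.1 CPM in stress, most of it from Ecm1 (mean 19.7 CPM), which monocytes also carried (169 CPM). Dcn was at 1.43 CPM in stress 3 and at 0.928 to 3.91 CPM in the other mice, and Acta2 at 1.68 CPM against 0.0930 to 4.27 CPM. The remaining stellate markers are not given here by mouse. The share of cells with a Col1a1 UMI was highest in stress 3 in other classes too. It was 5.94% of tumor cells, against at most 3.25% in the other mice, and 2.52% of monocytes, against 0.866%. DCs had 3.37% against 2.13%, NK/T cells 2.14% against 1.12% and B cells 2.70% against 0.877%. After thinning, stress 3 was not highest in tumor cells (0.182%, stress 1 0.187%) or B cells (0%, control 2 0.917%). The part of stellate RNA in the values of stress 3 was not tested. The groups did not overlap for 1 of the 16 genes, Col1a2, against 22.8% of all genes tested.

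The other collagens of ECs were low. Col27a1, a fibrillar collagen, was at 14.7 CPM ± 4.56 (SD, n = 6), Col18a1, the precursor of endostatin, at 5.74 CPM ± 3.65, and Col15a1 at 4.19 CPM ± 2.25. All 3 also divided between the sets of mice above and below 10000 median UMIs per cell, at 10.8 to 11.2 against 14.98 to 21.6 CPM for Col27a1, 1.49 to 5.09 against 6.57 to 11.7 CPM for Col18a1 and 1.64 to 2.79 against 4.82 to 6.98 CPM for Col15a1. By cluster, Col18a1 and Col15a1 divided only in cluster 2. Col27a1 overlapped in clusters 8 and 15 and ran the other way in cluster 27. Col6a3, a type VI chain, averaged 13.7 CPM ± 13.3 in cluster 18 and at most 4.85 CPM in any other EC cluster; its mice ranged from 1.17 to 32.9 CPM. In 6 EC clusters with at least 10 cells in every mouse, edgeR called 0 of 41 tests of collagen genes, against 0.431% of all tests, with 1 unadjusted p under 0.05. DESeq2 called 1 of 49, against 1.4% of all its tests, which was Col8a1, lower in the stress mice in cluster 18. With no filter on low counts 5 of 179 were called, against 1.57% of all tests. These were Col13a1 in cluster 8 and Col8a1 in cluster 18, both lower in stress, and Col3a1, Col12a1 and Col1a1 in cluster 16, higher in stress.

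In tumor cells, Col8a1 was the leading collagen. This chain of a network-forming collagen was at 67.4, 92.1 and 71.7 CPM in control 1, 2 and 3 and at 77.4, 124 and 88.5 CPM in stress 1, 2 and 3. The groups overlapped (log2 fold change 0.18, SE 0.16, adjusted p = 0.469). The sets of mice above and below 10000 median UMIs per cell did not, at 67.4 to 77.4 CPM against 88.5 to 124 CPM. Among the 10 tumor clusters the mean ran from 12.0 CPM ± 4.34 in cluster 21 to 145 CPM ± 22.7 in cluster 9, and every mouse of cluster 9 (114 to 165 CPM) lay above every mouse of cluster 21 (6.33 to 17.2 CPM).

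Col8a1 was also found at 15.3 to 97.1 CPM in every other class, and its ratio to tumor markers was computed for each. There were 10.8 Col8a1 UMIs per 100 UMIs of 5 tumor markers in tumor cells, 9.84 in monocytes, 11.9 in DCs, 10.9 in NK/T cells, 10.54 in B cells, 10.4 in inflammatory myeloid cells, 12.1 in M-MDSCs, 13.8 in neutrophils, 15.2 in ECs and 18.8 in HSCs. The mice ranged from 7.95 to 15.2 in tumor cells, from 0 to 45.5 in neutrophils and from 0 to 86 in HSCs. The clusters differed more than the classes, with 24.9 in EC cluster 2, 20.4 in EC cluster 18 and 18.2 in EC cluster 8, and from 1.63 in tumor cluster 21 to 25.8 in tumor cluster 17. EC cluster 16 (14.5) held 1764 of the 2229 Col8a1 UMIs of ECs. For type IV collagen the same count was set against endothelial markers. Col4a1 and Col4a2 together had 11 UMIs per 100 UMIs of 7 endothelial markers in ECs, 8.74 in tumor cells, 9.25 in monocytes, 8.15 in DCs, 6.36 in NK/T cells, 3.19 in B cells, 8.93 in M-MDSCs, 6.67 in neutrophils and 12.9 in inflammatory myeloid cells, but 408 in HSCs. The source of the UMIs outside the leading classes was not tested.

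Lower levels belonged to Col7a1, the anchoring fibril collagen, Col4a5, a type IV chain, and Col1a2. Col7a1 was at 5.57, 12.8 and 6.22 CPM in the tumor cells of control mice and 7.68, 10.2 and 13.0 CPM in those of stress mice. Control 2, stress 2 and stress 3 were the highest (log2 fold change 0.18, SE 0.31, adjusted p = 0.706). Without control 2 it was called, higher in stress (log2 fold change 0.62, adjusted p = 0.0424). Col4a5 was at 12.9, 8.12 and 10.8 CPM in control and 8.0, 6.90 and 8.25 CPM in stress, a log2 fold change of -0.60 (SE 0.19) that missed the threshold (adjusted p = 0.062). It was called by DESeq2 (adjusted p = 0.0128), with the replicate block (0.0143), with the depth term (0.0477) and without control 2 (0.00907), each time lower in stress. Mean Col4a5 was highest in tumor clusters 9 (21.02 CPM) and 5 (19.1 CPM) and lowest in cluster 21 (2.45 CPM). Col1a2 (3.48 CPM ± 2.02, SD, n = 6) and Col1a1 (0.94 CPM ± 0.66) were low in tumor cells, and the groups overlapped for both.

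Against controls, 7 collagen genes were called in the tumor cells of stress mice, 6 higher and 1 lower, of 35 tested (20.0%). Over all 18856 genes tested, 21.4% were called, 12.0% higher and 9.46% lower, so that the share of collagen genes was near that of genes in general. The groups did not overlap for 14 of the 35 against 38.3% of all genes. Of the 35 genes, 27 had a positive log2 fold change, with a median of 0.56 against -0.01 over all genes. All 7 called genes were below 2 CPM in both groups, as were 30 of the 35, of which 23 had a positive value. The share of positive values among all genes below 2 CPM was not counted, so these counts have no background to stand beside.

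Col12a1 and Col14a1 code for collagens on the surface of fibrils. Col12a1 was at 0.0879, 0.0922 and 0.0677 CPM in the tumor cells of control 1, 2 and 3 and at 0.607, 0.575 and 0.559 CPM in those of stress 1, 2 and 3. It rose in stress by a log2 fold change of 2.66 (SE 0.26, adjusted p = 0.0036), from 251 UMIs in all. Col14a1 was at 0.0762, 0.0725 and 0.0369 CPM in control and 0.137, 0.25 and 0.154 CPM in stress. Its rise (log2 fold change 1.38, SE 0.39, adjusted p = 0.043) rests on 95 UMIs and was lost with DESeq2 (adjusted p = 0.0795), with no filter on low counts (0.0547) and without any 1 of the mice other than control 2 (0.0685 to 0.144).

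Col23a1 and Col25a1 code for membrane-spanning collagens. Col23a1 was at 0.363, 0.474 and 0.209 CPM in control and 1.77, 1.55 and 1.20 CPM in stress, and rose by a log2 fold change of 1.98 (SE 0.32, adjusted p = 0.00855). Col25a1 was at 0.158, 0.152 and 0.16 CPM in control and 0.369, 0.567 and 0.617 CPM in stress, and rose by 1.56 on the log2 scale (SE 0.27, adjusted p = 0.00958). The groups did not overlap for either.

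The last 3 were Col24a1 and Col27a1, fibrillar collagens, and Col26a1. Col24a1 was at 0.545, 0.507 and 0.363 CPM in control and 1.13, 1.38 and 1.21 CPM in stress (log2 fold change 1.25, SE 0.22, adjusted p = 0.00993). Col26a1, with 58 UMIs in all, was at 0.0351, 0.0198 and 0.0185 CPM in control and 0.137, 0.117 and 0.125 CPM in stress (log2 fold change 2.18, SE 0.40, adjusted p = 0.0116). Its control levels lay under the cutoff of the filter on low counts, which it passed through the stress mice alone. Col27a1 was at 1.80, 1.89 and 1.64 CPM in control and 0.715, 1.18 and 1.09 CPM in stress, and fell by 0.99 on the log2 scale (SE 0.20, adjusted p = 0.0166). The calls of Col26a1 and Col27a1 depended on single mice: Col26a1 was lost without control 3 (adjusted p = 0.0607), and Col27a1 without control 1 (0.0537) or control 3 (0.0573). The count of collagen genes called was 13 of 38 without control 2, where 29.9% of all genes were called, and 4 of 38 without control 3, where 6.14% were. The summed level of 10 stellate markers in tumor cells was 6.84 to 12.3 CPM in control and 6.31 to 8.91 CPM in stress, most of it from Ecm1 (mean 6.93 CPM). Among the rest, Tagln was at 0.148 to 0.258 CPM in control and 0.482 to 0.672 CPM in stress, and Pdgfrb at 0.0198 to 0.0492 and 0.0578 to 0.299 CPM, without overlap, whereas the groups overlapped for Dcn. The remaining stellate markers are not given here by group. The summed level of 7 endothelial markers was 21.5 to 27.0 CPM in control and 28.7 to 40.3 CPM in stress. The part of stellate or endothelial RNA in the calls was not tested. Without cells carrying at least 2 stellate markers, the same 7 genes were called. That left 7342 of 7383 tumor cells in control 1 and 3310 of 3349 in stress 3, and kept cells with fewer such markers. It is thus no test of stellate RNA spread thinly over many cells.

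**Figure D4:**
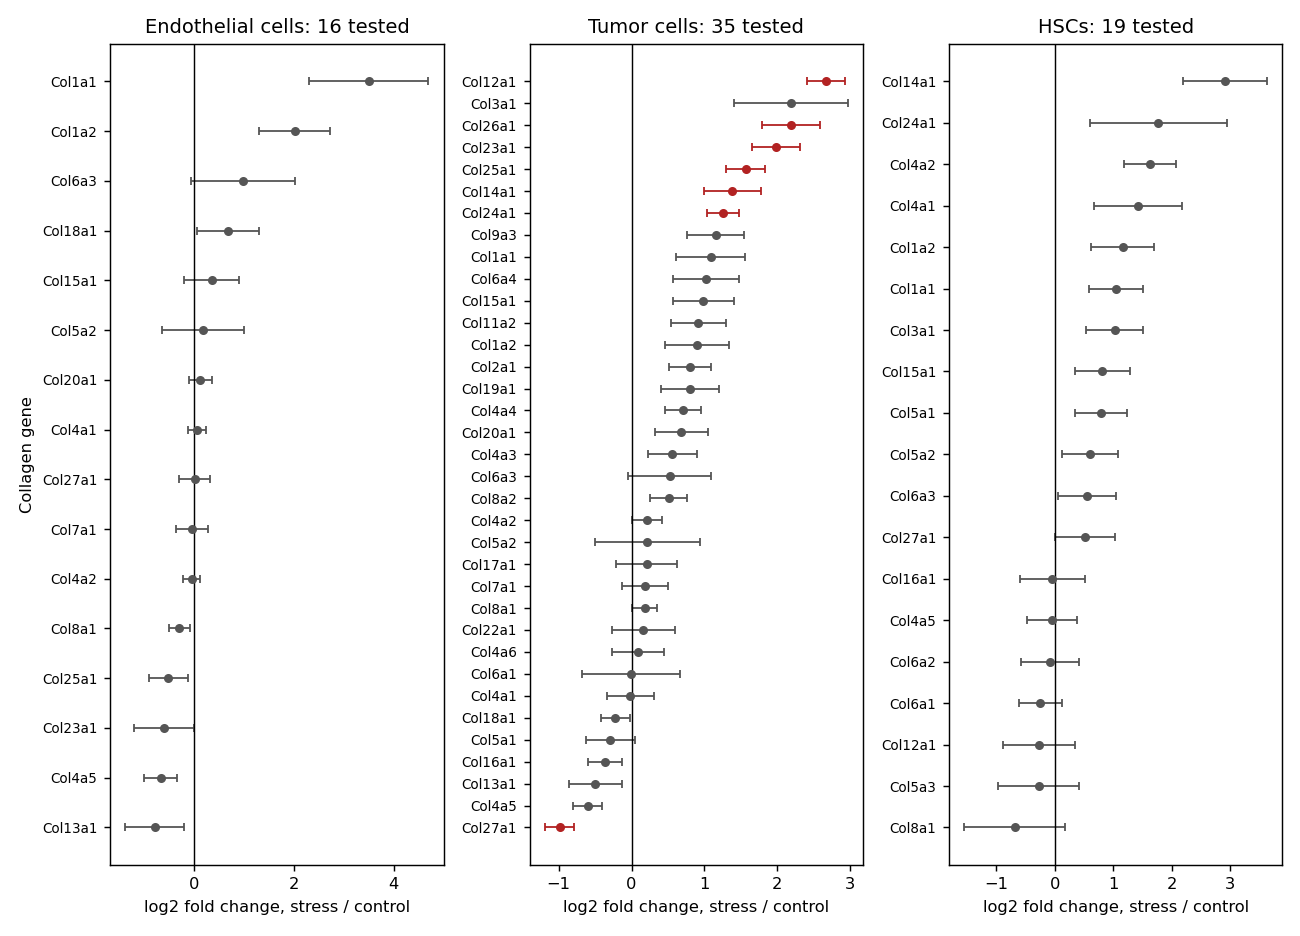
Log2 fold change of stress over control with its SE for each collagen gene tested in ECs (16), tumor cells (35) and HSCs (19). The 7 called genes (red) are all in tumor cells, with Col12a1 at 2.66 and Col27a1 at -0.99.

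The 6 genes that rose span over 100 kb each, from 120 kb for Col12a1 to 468 kb for Col25a1 (GENCODE M21, GRCm38). Of the 22 tested collagen genes of that span 6 rose, and of the 13 shorter ones 0 did. The median log2 fold change ran the other way, at 0.39 for the former and 0.68 for the latter. Among all genes tested with a known span, 14.1% of 2314 longer and 11.5% of 15632 shorter genes rose, and 7.82% and 10.03% fell. Col27a1, the collagen gene that fell, spans 121 kb. The part of gene span in these calls was not tested.

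By cluster, the change of Col12a1 and Col23a1 was largest in cluster 9 among the clusters in which they were called. Col12a1 in cluster 9 was at 0.151, 0.217 and 0.0905 CPM in control and 3.05, 5.01 and 3.67 CPM in stress (log2 fold change 4.56, SE 0.44, adjusted p = 0.00139). The 88 UMIs of this cluster were more than those of any other tumor cluster. Col23a1 in cluster 9 was at 0.377, 1.52 and 0.181 CPM in control and 8.6, 9.07 and 2.55 CPM in stress (log2 fold change 3.37, SE 0.67, adjusted p = 0.0158). Both genes passed the filter on low counts there through the stress mice, since too few control mice reached its cutoff. In cluster 9 the Col12a1 call held without any 1 mouse, whereas that of Col23a1 was lost without control 1, control 3, stress 1 or stress 2. In cluster 1, Col12a1, Col23a1 and Col25a1 rose by 2.97, 1.81 and 2.10 on the log2 scale (adjusted p = 0.00888, 0.037 and 0.0426). In cluster 1 the call of Col12a1 held without any 1 mouse, that of Col23a1 only without control 2, and that of Col25a1 in none of these fits nor with DESeq2. In cluster 4, Col23a1 rose by 1.89 (adjusted p = 0.0146) and Col4a5 fell by 0.62 (adjusted p = 0.0492), the latter from 8.67 CPM on average in control to 5.76 CPM in stress. In cluster 4 the Col4a5 call was lost with RLE scaling and without any 1 mouse other than control 2, and the Col23a1 call without control 1, control 3 or stress 2.

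The 7 calls were among 125 tests of collagen genes in 10 tumor clusters, against 6.34% of all tests in those clusters. The shares of all genes called were 14.6% in cluster 1, 14.0% in cluster 4 and 9.17% in cluster 9. The clusters were never tested against each other, since they were built from these genes. Leaving out 1 mouse moved the 7 calls to 3 (control 1), 27 (control 2), 2 (control 3), 4 (stress 1), 2 (stress 2) or 6 (stress 3). The share of all tests called in these clusters moved as well, to 2.21%, 13.9%, 1.83%, 3.42%, 2.66% and 3.18% in the same order.

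**Figure D5:**
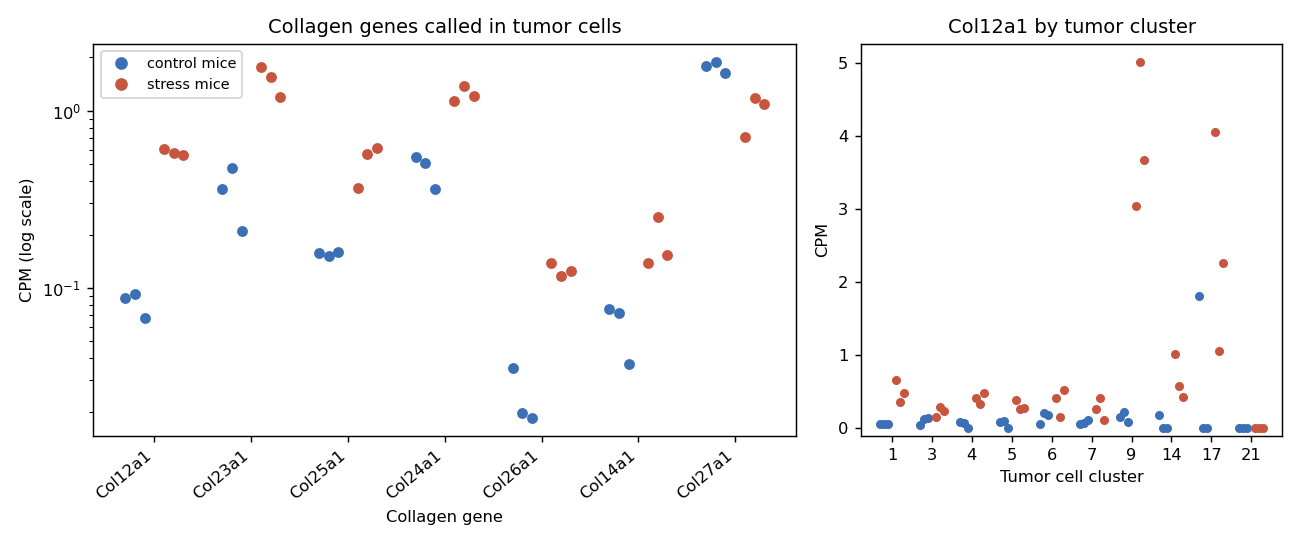
Left, CPM (log scale) in the tumor cells of each mouse for the 7 collagen genes called between stress and control. Right, CPM of Col12a1 in the 10 tumor clusters, 1 point per mouse (blue, control; red, stress). The groups are apart for every gene on the left, and in cluster 9 the stress mice are at 3.05 to 5.01 CPM.

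Whether stress acted differently in tumor cells and ECs was tested directly, with each mouse as a block. By edgeR, 0 of 31 collagen genes differed, against 0.130% of 19199 genes, and 6 had an unadjusted p under 0.05. The log2 difference of the stress effect, tumor cells minus ECs, was 2.47 for Col23a1 (SE 0.51, adjusted p = 0.142), 2.08 for Col25a1 (SE 0.45, adjusted p = 0.158) and -0.97 for Col27a1 (SE 0.29, adjusted p = 0.264). For Col8a1 it was 0.56 (SE 0.17, adjusted p = 0.263), for Col1a1 -1.80 (SE 0.76, adjusted p = 0.383) and for Col5a1 -1.58 (SE 0.66, adjusted p = 0.383). Of the genes that rose in tumor cells, Col12a1 (-0.82, SE 1.48, adjusted p = 0.848) and Col24a1 (-1.46, SE 0.90, adjusted p = 0.525) had negative differences. A call in tumor cells alone is therefore not shown to be a difference from ECs.

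The 6 other classes tested, the M-MDSC class with its tumor markers among them, gave 0 calls in 21 tests of collagen genes by edgeR, against 0.804% of all tests. DESeq2 called none either, and gave no collagen gene of B cells an adjusted p. Its share of all genes called ran from 0.0244% in inflammatory myeloid cells to 3.76% in DCs. The only unadjusted p under 0.05 was that of Col4a2 in inflammatory myeloid cells (log2 fold change 1.21, SE 0.52, adjusted p = 0.994). With no filter on low counts Col3a1 was called there, higher in the stress mice, as 1 of 33 collagen genes against 0.39% of all genes. Neutrophils, with as few as 4 cells in a mouse, were not tested.

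Genes that modify, join, bind and degrade collagen were examined as 5 lists, whose counts in tumor cells stand beside 12.0% of all genes higher and 9.46% lower. Of 22 genes for the hydroxylation and folding of collagen chains, 21 were tested in tumor cells, where 3 fell and 1 rose. Colgalt1, which adds galactose to hydroxylysine, fell from 77.0 CPM ± 4.51 to 58.0 CPM ± 4.27 (SD, n = 3 each; log2 fold change -0.55, SE 0.09, adjusted p = 0.00855). P4ha1, the catalytic subunit of prolyl 4-hydroxylase, fell from 104 CPM ± 8.6 to 86.3 CPM ± 7.71 (adjusted p = 0.0151), and P3h1, a prolyl 3-hydroxylase, from 11.8 to 10.1 CPM (adjusted p = 0.0323). P3h3, of the same family, rose from 0.869 CPM ± 0.0173 to 4.36 CPM ± 1.38 (log2 fold change 2.17, SE 0.22, adjusted p = 0.00384).

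Of 14 genes for cross-linking and propeptide cleavage, 12 were tested, and 2 rose and 2 fell. Loxl2, a lysyl oxidase that cross-links collagen, rose from 2.78 CPM ± 1.08 to 8.58 CPM ± 3.66 (adjusted p = 0.0282), and Tll2, of the procollagen C-proteinase family, from 0.115 to 0.583 CPM (adjusted p = 0.00931). Adamts3 and Adamts14, which cleave procollagen N-propeptides, fell from 8.45 CPM ± 0.666 to 4.27 CPM ± 1.18 (adjusted p = 0.0107) and from 18.9 CPM ± 2.15 to 13.9 CPM ± 2.73 (adjusted p = 0.0241).

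Of 13 collagen receptors tested, Gp6, the platelet collagen receptor, and Mrc2, an endocytic collagen receptor, rose and none fell, both at or below 1.21 CPM. Of 11 tested degrading enzymes and inhibitors, Mmp15 rose to 0.142 CPM and Ctsb, the lysosomal protease cathepsin B, fell from 182 CPM ± 18.1 to 157 CPM ± 10.1 (adjusted p = 0.0247). Of 18 tested basement membrane partners, Lamc3, a laminin chain, rose from 0.423 to 1.15 CPM (adjusted p = 0.0115). The medians of the 5 lists in tumor cells ran from -0.20 to 0.06 on the log2 scale, against -0.01 over all genes. By edgeR, 0 genes of these lists were called in ECs, where 10 to 21 were tested per list and 1 to 5 had an unadjusted p under 0.05. In HSCs 0 were called as well, with 6 to 16 tested per list and 1 to 2 with an unadjusted p under 0.05. Whether the lists changed differently in tumor cells was not tested.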

How the data were processed

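Liver tumor tissue of 6 mice was dissociated and sequenced on the 10x Chromium platform. The authors aligned reads to mm10 with Cell Ranger and deposited UMI counts per gene and cell, with a table of cell types and clusters. The UMI total of a cell equalled the total in that table for 68.3% to 76.7% of the annotated cells of a library. Why the totals of the remaining cells differed was not tested. Their methods state filtering of cells, removal of doublets with Scrublet and integration with Harmony; no doublet caller was run here. Groups came from the labels. Collagen genes and all gene lists were chosen with earlier results of these data known.

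Counts were summed per mouse over each cell type with at least 5 cells per mouse and each cluster with at least 10. Stress and control were compared with edgeR 4.0.16 (R 4.3.3), using filtering by expression, TMM scaling and the quasi-likelihood test with Benjamini-Hochberg adjustment over all genes tested. The filter keeps a gene that reaches its count cutoff in as many mice as a group holds, so a gene can enter through a single group. A gene was called at an adjusted p under 0.05. The SE is the log2 fold change divided by the square root of the test statistic. The difference of stress effects between tumor cells and ECs was fitted with the mouse as a block. By the rule for named genes, any collagen gene that passed the filter could be named, every one called was named, and of each list at most the 4 called genes with the smallest p were. Ratios were compared with an exact permutation test (scipy 1.17.1). The code was tested on simulated data for ECs. Alternatives were DESeq2 1.42.0, RLE scaling, no filter, a replicate block, each mouse left out, equal cell numbers, a minimum log2 fold change of 0.15, cells with stellate markers left out and, added after the data were seen, a depth term (mice above against below a median of 10000 UMIs per cell). Nothing in the sources used here ties a replicate number to a shared batch. Same-numbered control and stress mice deviated together with correlations of 0.57, 0.43 and 0.02 in ECs and 0.50, 0.39 and -0.13 in tumor cells. Differently numbered mice reached 0.23 (control 2 with stress 3) and 0.21 (control 3 with stress 1) in ECs. The main fits did not treat same-numbered mice as pairs, and the replicate block was an alternative. Library totals of 149558935 to 187728350 UMIs set the precision of low genes, and p-values cover the spread between mice. Promoter and start sequences are from RefSeq (GRCm38.p6), where 35 of the 44 genes had a window.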

Additional observations from a re-analysis of the deposited data

How the results depend on the processing

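Calls of collagen genes rest on 3 mice a group. In ECs the count stayed at 0 under 15 alternatives. In tumor cells it was 7 and ranged from 4 to 13 with 1 mouse left out; DESeq2 gave 9 of 39, and the replicate block and the depth term 9 of 35 each, where 25.9%, 27% and 29.8% of all genes were called, against 21.4%. In tumor clusters it was 7 of 125 and became 18 of 392 with no filter, 13 of 125 with the replicate block and 12 of 125 with the depth term, where 6.06%, 9.35% and 11.4% of all tests were called, against 6.34%. It ranged from 2 to 27 with 1 mouse left out (27 of 137 without control 2, where 13.9% of all tests were called). With no filter the counts became 4 in HSCs, 1 in inflammatory myeloid cells and 5 in EC clusters, where DESeq2 gave 1. The difference between tumor cells and ECs gave 1 call of 44 with no filter (Col23a1; 0.702% of all genes) and 0 to 1 with 1 mouse left out (Col27a1, 1 of 33 without control 2; 1.31% of all genes). Col12a1, Col23a1, Col24a1 and Col25a1 were called in tumor cells under all 13 alternatives. In tumor cells as a whole, Col3a1, Col4a4, Col4a5, Col5a2, Col5a3, Col6a6, Col7a1, Col9a3, Col11a2 and Col20a1 were called only under some alternative. Those fits called 11.1% to 29.9% of all genes. Alternatives in tumor clusters added Col1a1, Col1a2 and Col8a1.

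With 1 mouse left out, the log2 fold change in tumor cells ran from -0.00041 to 0.30 for Col8a1 and from -0.032 to 0.62 for Col7a1 (-0.0015 without stress 3). In ECs it ran from -0.14 to 0.16 for Col4a1 (-0.014 without control 1), from -0.21 to 0.064 for Col4a2 (0.0012 without stress 1, 0.058 without control 3), from -0.26 to 1.74 for Col5a2 and from -0.17 to 0.43 for Col27a1. The depth term gave -0.21 for Col5a2 and -0.19 for Col27a1. The difference in Col1a2 per Col1a1 in HSCs ran from -0.014 to 0.26, and that in Col4a2 per Col4a1 in ECs from -0.11 to -0.0043. With the replicate block, the count of collagen genes in tumor cluster 9 went from 2 to 4 of 14. In clusters 3 and 5 it went from 0 to 1, of 18 and 16. The share of all genes called rose as well, from 9.17% to 15% in cluster 9, 3.11% to 9.5% in cluster 3 and 2.05% to 5.45% in cluster 5. The count over all genes went from 30 to 131 in ECs and from 15 to 205 in monocytes. The cause of these shifts was not tested. Collagen genes below 1 CPM rest on few UMIs (58 for Col26a1), and HSC values on as few as 6 cells.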

Other observations

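Between 264 and 549 barcodes of each library carried no annotation and were used in no comparison. Over the 6 libraries, Col8a1 was at 85.1 CPM ± 18.3 (SD, n = 6 mice) in them, against a mean of 75.7 CPM over all annotated cells. Col7a1 was at 9.91 CPM ± 4.42 against 8.08 CPM, and Col4a5 at 9.31 CPM ± 3.25 against 8.31 CPM. Col4a1 was lower, at 8.47 CPM ± 4.47 against 32.5 CPM, and Col1a1 was at 1.32 CPM ± 1.20 against 19.9 CPM.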
